A study of Mus musculus with 40 samples.

Results

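Aortas of mice pretreated with cyclosporin A (CsA) were compared after 24 h and after 2 h of angiotensin II (Ang-II), with 3 RNA-seq libraries at each time, which are 6 of the 40 libraries of the series. All 15399 genes of the deposited table were compared. The mice were male C57BL/6J, 10 to 12 weeks old, and each library pooled the aortas of 3 mice after perfusion and removal of the perivascular tissue and the adventitia. A minipump delivered CsA at 5 mg/kg/day, and 5 days after its implantation Ang-II was given at a minipump rate of 1 µg/kg/min during 2 or 24 h. The methods describe no removal of the CsA pump, so longer Ang-II also cannot be told apart from longer CsA. Per the methods, Ang-II-treated mice were kept when their systolic pressure was above 130 mmHg, and CsA-treated mice when thymic NFAT dephosphorylation was inhibited. Beside these libraries, the text uses 3 libraries of CsA-pretreated mice without Ang-II (CsA untreated) and 9 of mice without CsA (WT), which were untreated or had Ang-II for 2 or 24 h. The CsA untreated mice carried the CsA pump. The methods describe control mice operated without a pump, but name no such group at 2 and 24 h after the Ang-II surgery. Hours of Ang-II and hours since that surgery therefore cannot be told apart, and neither can CsA and its own pump in the comparison with WT.

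Ang-II raises blood pressure through its type 1 receptor, which in smooth muscle releases calcium and activates MAP kinases. One calcium-dependent enzyme is calcineurin, a phosphatase that moves the NFAT transcription factors into the nucleus and that CsA blocks in a complex with cyclophilin A. In the hours after such a stimulus, cells transcribe immediate early genes first and genes for secreted, matrix and inflammatory proteins later. The comparison of 24 h with 2 h in CsA-pretreated aortas therefore describes how the early and late transcripts followed each other in mice given this inhibitor.

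The deposited value is called the signal here. It is proportional to the reads of a gene relative to those of the library and is not divided by transcript length, so it compares libraries for one gene and not genes with each other. The 6 libraries held 20387774 to 38900009 reads, and 0.435 to 0.773% of the genes had no read in a library. Smooth muscle markers were all detected, with a summed signal of 19000 to 24600 at 2 h and 18000 to 26300 at 24 h, and the endothelial markers summed to 1030 to 1310 and 1010 to 1650. Of the lymphocyte markers, 7 of 10 were not in the table. Replicate 3 of both groups compared stood apart. CsA Ang-II 24 h replicate 3 lay at 45 on the first principal component, against 8.5 and 9 for the others of its group, and CsA Ang-II 2 h replicate 3 at 42.2 on the second, against 11.9 and -1. Counts are therefore also given without both of these libraries. In bulk tissue, fewer cells of a type and less RNA per cell cannot be told apart.

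From 2 h to 24 h, 2498 genes (16.2% of those tested) were differentially expressed genes (DEGs), which are genes with an adjusted p under 0.05 in limma with Benjamini-Hochberg adjustment over all genes. Of these, 1465 (9.51%) were lower and 1033 (6.71%) were higher at 24 h. The counts of list members given below stand beside these shares. A change of more than 2-fold was found for 437 genes (2.84%), of which 278 (1.81%) were lower and 159 (1.03%) higher. The libraries of the groups did not overlap for 4980 genes (32.3%). With quantile normalization of the libraries the split turned over, with 1065 genes lower and 1339 higher. Leaving out CsA Ang-II 2 h replicate 2 gave 1598 DEGs, 681 of them higher, leaving out 24 h replicate 1 gave 680 higher, and leaving out both replicate 3 gave 1574, of which 961 were lower and 613 higher. The median SD between the replicates of a group was 0.194 at 2 h and 0.19 at 24 h on the log2 scale. Without a model across genes, 3 libraries against 3 cannot reach a two-sided exact permutation p below 0.1.

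Heat shock proteins and their cochaperones fell widely. Of 31 members measured, 24 were lower at 24 h, 21 of them more than 2-fold, and 1 was higher. Their median log2 change was -1.28, beside -0.01 over all genes, and 25 were lower without both replicate 3. These proteins hold or refold unfolded proteins, and many of their genes are transcribed by the heat shock factor HSF1, which binds repeats of the unit GAA and its complement TTC. The inducible Hsp70 genes Hspa1a and Hspa1b fell most.

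The promoters are shown because the group shares letters of this kind. RefSeq promoter sequences (GRCm38.p6, 250 bases before to 50 after the start) were found by symbol for 10632 protein-coding genes. Promoter counts here are counts of genes, and a gene with several promoter entries counted once if any entry held the match. The longer form searched, GAANNTTC followed after 2 bases by a further GAA, on both strands, was in 0.555% of all promoters and in 4 of 24 heat shock promoters. The shorter form GAANNTTC, which lies within the longer one, was in 7.035% of all promoters and in 13 of the 24 (54.167%). Hspb6, which rose, also held the shorter form and is not printed. Stretches of 110 bases of members that fell follow, 5′ to 3′ on the strand of the gene, with the matches in capitals. The first pair shows the longer form and the others the shorter one.
Hspd1, chr1:55087982-55088091, minus strand: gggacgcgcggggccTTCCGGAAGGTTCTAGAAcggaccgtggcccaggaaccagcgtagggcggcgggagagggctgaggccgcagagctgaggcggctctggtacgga
Hspe1, chr1:55088038-55088147, plus strand: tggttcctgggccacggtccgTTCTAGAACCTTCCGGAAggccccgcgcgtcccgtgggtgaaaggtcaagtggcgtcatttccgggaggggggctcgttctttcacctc
Hspa1a, chr17:34972166-34972275, minus strand: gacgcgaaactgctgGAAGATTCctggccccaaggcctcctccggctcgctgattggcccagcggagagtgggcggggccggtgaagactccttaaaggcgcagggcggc
Hspb1, chr5:135887787-135887896, plus strand: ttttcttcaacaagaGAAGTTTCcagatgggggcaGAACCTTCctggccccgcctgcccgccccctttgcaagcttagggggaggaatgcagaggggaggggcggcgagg
Dnaja4, chr9:54699449-54699558, plus strand: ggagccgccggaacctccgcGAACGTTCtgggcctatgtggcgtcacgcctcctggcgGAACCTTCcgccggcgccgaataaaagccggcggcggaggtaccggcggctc
Hspd1 and Hspe1 lie head to head, and the capitals in their stretches are the same bases of chromosome 1 read on opposite strands. The Hspa1b stretch, at chr17:34959248-34959357 on the minus strand, had the same letters as that of Hspa1a at all 110 positions. A match is a description of the letters and not a binding site.

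The signal of Hspa1b (ENSMUSG00000090877, chromosome 17, 34956436 to 34959238, minus strand) was 2834, 6067, and 3643 at 2 h and 158, 236, and 87.7 at 24 h. All 3 libraries at 2 h were far above those at 24 h, and the CsA untreated libraries, at 277, 143, and 122, overlapped the 24 h group. The log2 change was -4.74 (SE 0.46, adjusted p = 2.31e-05, limma), a fitted level 26.6-fold higher at 2 h. Hspa1a changed by -4.77, but Hspa1a, Hspa1b, and Gm20481, which overlaps Hspa1a, share near-identical sequence, and how the authors' counting split their reads is uncertain.

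Dnajb1, an Hsp40 that delivers clients to Hsp70, had a signal of 258, 442, and 416 at 2 h and 44.6, 54.4, and 37.3 at 24 h. The groups did not overlap, and the 24 h libraries were near the CsA untreated ones, at 58.3, 42.3, and 33. Its log2 change was -3.00 (SE 0.25, adjusted p = 1.13e-05, limma). The cochaperone Dnaja4 changed by -2.45, the nucleotide exchange factor Hsph1 by -2.38, and Dnaja1 and Dnajb4 by -2.06 and -2.29.

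Hspa8, the constitutive Hsc70, had a signal of 4196, 6436, and 5018 at 2 h and 1254, 1419, and 1002 at 24 h, and Hsp90aa1, the inducible cytosolic Hsp90, had 1364, 2016, and 1699.6 and 449.9, 502, and 374. Neither gene had a library at 24 h that reached those at 2 h. Their log2 changes were -2.08 (adjusted p = 3.8e-05) and -1.93 (adjusted p = 1.77e-05, limma). The small heat shock proteins Hspb1 and Cryab fell by 2.14 and 1.46 on the log2 scale, and the mitochondrial chaperonins Hspd1 and Hspe1 by 1.30 and 1.27. Hspb6, a small heat shock protein of smooth muscle, was the one member that rose, from 81.6, 126, and 92.8 to 155, 172, and 128 (log2 change 0.61, SE 0.14, adjusted p = 0.0099, limma).

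The immediate early genes, which encode transcription factors and other proteins made within minutes to hours of a stimulus, fell as a group. Of 28 measured, 20 were lower at 24 h, 15 of them more than 2-fold, and 0 were higher, with 8 not called. The median log2 change was -1.11, and 14 were lower without both replicate 3. The 8 that were not called included Junb (log2 change 0.27, adjusted p = 0.496) and Myc (log2 change -0.97, adjusted p = 0.0528, limma).

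Arc, a cytoskeletal immediate early gene best known from neurons, had a signal of 36, 87.7, and 85.6 at 2 h and 4.84, 5.28, and 2.78 at 24 h. Every 2 h library was above every 24 h library. The log2 change was -3.81 (SE 0.39, adjusted p = 3e-05, limma). Atf3, a stress-induced transcription factor, had 279.5, 425, and 504 at 2 h and 22, 51.4, and 21.1 at 24 h, again without overlap, and a log2 change of -3.74 (SE 0.44, adjusted p = 0.000107, limma).

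Among the subunits of the AP-1 transcription factor, Fosb changed by -3.56, Fos by -2.18, and Jun by -2.03 on the log2 scale. The signal of Fos was 54, 66.6, and 160.1 at 2 h and 15, 18.7, and 20.9 at 24 h. The groups did not overlap, and replicate 3 was the highest 2 h library. The adjusted p of Fos was 0.0112 in limma with all libraries and 0.0673 without both replicate 3. The zinc finger factor Egr1 changed by -1.55 and the orphan nuclear receptors Nr4a1 and Nr4a3 by -1.57 and -1.94. The call of Nr4a1 (adjusted p = 0.00785) was lost without both replicate 3, at 0.0677.

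Feedback inhibitors of MAP kinase signalling had 6 of 16 members lower and 0 higher (median log2 change -0.45), with 3 lower without both replicate 3. Errfi1, an inhibitor of the EGF receptor, had a signal of 409, 617, and 532 at 2 h and 119.9, 139, and 150.1 at 24 h. The groups did not overlap, and the log2 change was -1.91 (SE 0.19, adjusted p = 2.63e-05, limma). The phosphatases Dusp8, Dusp10 and Dusp16 changed by -1.14, -1.43 and -1.10, and Dusp10 lost its call without both replicate 3 (adjusted p = 0.0874, limma). Dusp1, which dephosphorylates p38 and JNK, changed by -1.16 (adjusted p = 0.0188), with an adjusted p of 0.0602, 0.0544, and 0.0865 without CsA Ang-II 2 h replicate 2, 2 h replicate 3, and 24 h replicate 3, respectively.

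Targets of the glucocorticoid receptor had 13 of 24 members lower and 1 higher (median log2 change -0.41), 10 and 0 without both replicate 3, and 7 and 1 with quantile normalization. Zbtb16, a transcriptional repressor, had a signal of 188, 229, and 200.1 at 2 h and 65.7, 104, and 97.4 at 24 h. No 24 h library reached the 2 h libraries, and the log2 change was -1.23 (SE 0.18, adjusted p = 0.000585, limma). The kinase Sgk1 changed by -0.95 and the anti-inflammatory leucine zipper protein Tsc22d3 by -0.62, with an adjusted p of 0.0509 for Tsc22d3 in limma without both replicate 3. Fkbp5, a cochaperone of the receptor, changed by -0.75 (adjusted p = 0.0209) and lost its call without CsA Ang-II 2 h replicate 2 (0.0547), 24 h replicate 1 (0.095), or 24 h replicate 2 (0.0659). The member that rose was Lyve1, a hyaluronan receptor of lymphatic endothelium and some macrophages (log2 change 1.07, adjusted p = 0.00432, and 0.0558 without both replicate 3).

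Krüppel-like factors, zinc finger regulators of vascular cells, had 8 of 13 members lower and 0 higher (median log2 change -0.40). That count was 5 without CsA Ang-II 2 h replicate 1, 2 h replicate 2, or 24 h replicate 1, and 4 without both replicate 3. Klf4, a regulator of smooth muscle phenotype, had a signal of 114, 122, and 91.8 at 2 h and 73.3, 66.2, and 75 at 24 h, without overlap (log2 change -0.60, SE 0.12, adjusted p = 0.00317, limma). Klf6 changed by -1.09 and had an adjusted p of 0.0529 in limma without both replicate 3.

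**Figure D1:**
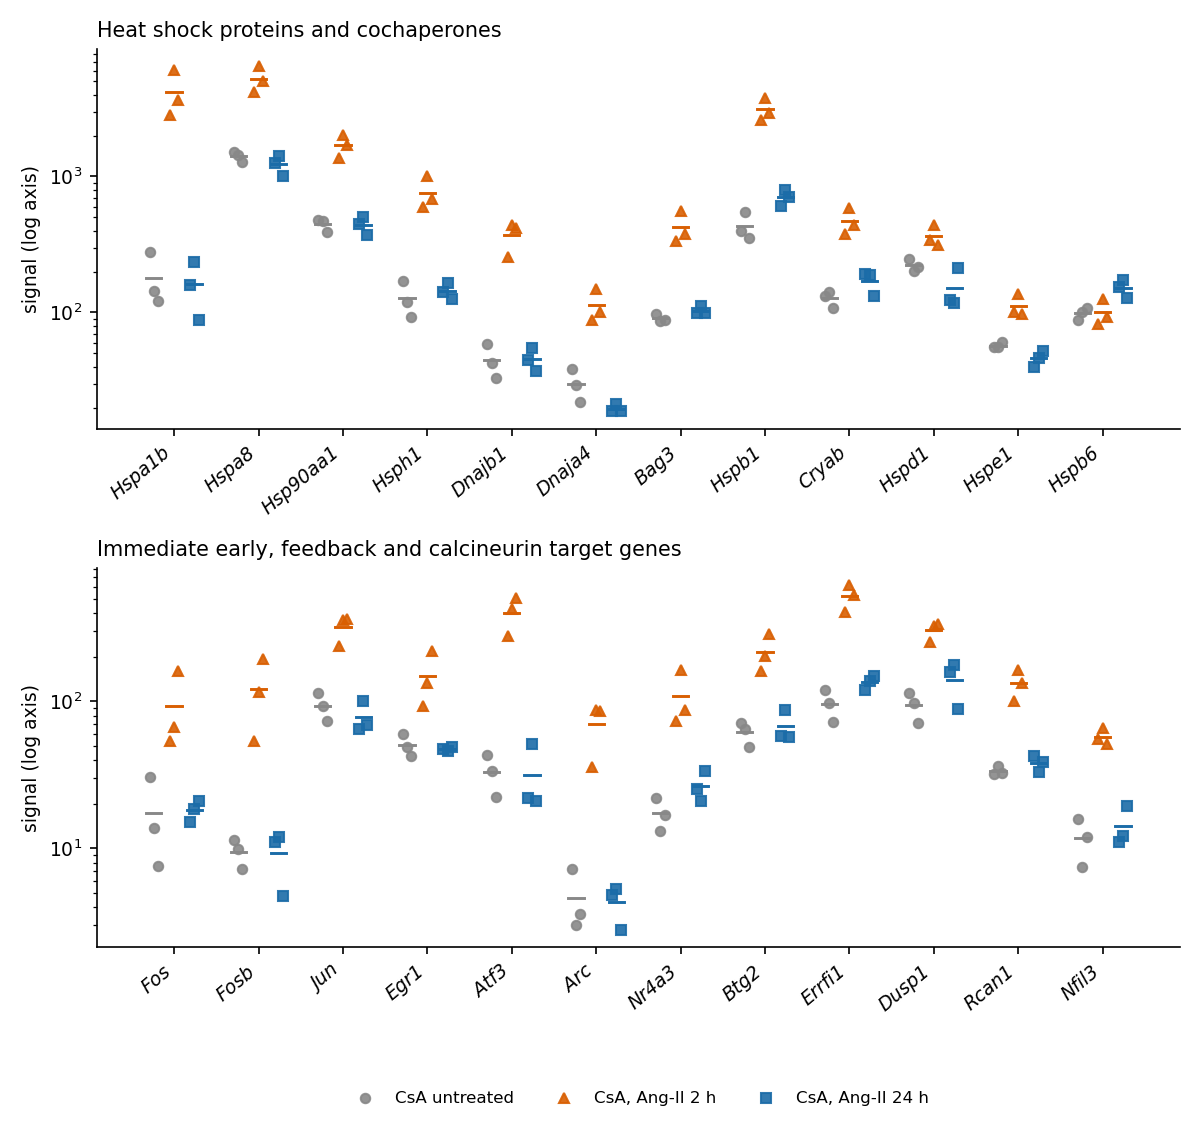
The signal of 12 heat shock and cochaperone genes (top) and 12 immediate early, feedback and calcineurin target genes (bottom) in each library, on a log axis. Points are libraries, short lines are group means, and colours mark CsA untreated, Ang-II 2 h and Ang-II 24 h. In both panels the 2 h points lie above the 24 h points, except for Hspb6, and for Hspa1b they span 2834, 6067, and 3643 at 2 h and 158, 236, and 87.7 at 24 h.

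Genes of the calcineurin and NFAT pathway, the target of CsA, moved in both directions. Of 22 measured, 5 were lower and 3 higher at 24 h, beside 9.51% lower and 6.71% higher over all genes. The median log2 change was -0.18, and it was -0.04 with quantile normalization and -0.05 without both replicate 3. Rcan1, an NFAT target that binds and regulates calcineurin, had a signal of 101, 163, and 134 at 2 h and 42.8, 33, and 38.5 at 24 h. All 2 h libraries were above all 24 h libraries, and the CsA untreated libraries had 32.3, 36.5, and 32.4. The log2 change was -1.77 (SE 0.21, adjusted p = 0.000107, limma), and in WT aortas it was -1.52.

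Rcan2, a relative of Rcan1, changed by -1.22. The NFAT genes Nfatc1 and Nfatc2 changed by -0.91 (adjusted p = 0.000701) and -0.86 (adjusted p = 0.00146), and Nfatc4 by 0.50 (adjusted p = 0.00204, limma). Akap5, which anchors calcineurin at membranes, changed by 0.97 (adjusted p = 0.0138), with 0.0553 when CsA Ang-II 24 h replicate 1 was left out and 0.0594 when both replicate 3 were. Nfatc3 was called higher with all libraries (log2 change 0.32, adjusted p = 0.0384, limma) and had adjusted p values of 0.11 and 0.0934 without CsA Ang-II 2 h replicate 2 or 3 and 0.105 and 0.101 without 24 h replicate 1 or 2. The calcineurin subunits were not called, with log2 changes of -0.18 for Ppp3ca, -0.17 for Ppp3cb, and -0.23 for Ppp3r1. Ppia, which encodes cyclophilin A, had a log2 change of 0.11 (adjusted p = 0.492, limma).

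The Rcan1 promoter and those of some feedback and immediate early genes held the cAMP response element TGACGTCA, a palindrome that reads the same on both strands. It was in 3.461% of all promoters and in 15 of 191 promoters (7.853%) of genes more than 2-fold lower at 24 h. Of those more than 2-fold higher, 1 of 97 (1.031%) held it. Of the 21 promoters of immediate early genes, 2 held it. A CArG box, an E-box and a sterol regulatory element were also searched and are not printed. The CArG box was in 3 of these 21 (14.286%), in 3 of the 191 (1.571%) and in 1.627% of all. Of the 3 immediate early genes with the box, Zfp36 was lower (log2 change -0.7), while Egr2 (-0.4) and Srf (0.08) were not called. The E-box was in 24 of the 191 (12.565%), 10 of the 97 (10.309%) and 11.315% of all. The sterol regulatory element was in 0 of 17 promoters of cholesterol genes and in 0.254% of all. Btg2 is an antiproliferative immediate early gene, and Dusp8 holds the cAMP response element at 2 places. The stretches of Rcan1, Errfi1, Btg2 and Dusp8 are printed with this element in capitals (RefSeq, GRCm38.p6, 5′ to 3′ on the gene's strand).
Rcan1, chr16:92400159-92400268, minus strand: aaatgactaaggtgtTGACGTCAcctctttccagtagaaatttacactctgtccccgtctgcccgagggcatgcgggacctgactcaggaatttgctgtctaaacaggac
Errfi1, chr4:150854960-150855069, plus strand: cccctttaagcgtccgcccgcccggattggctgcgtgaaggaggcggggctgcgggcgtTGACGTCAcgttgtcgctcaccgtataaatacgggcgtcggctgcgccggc
Btg2, chr1:134079227-134079336, minus strand: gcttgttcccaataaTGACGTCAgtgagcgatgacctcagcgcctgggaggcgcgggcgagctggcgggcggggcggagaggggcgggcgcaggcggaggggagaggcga
Dusp8, chr7:142095297-142095406, minus strand: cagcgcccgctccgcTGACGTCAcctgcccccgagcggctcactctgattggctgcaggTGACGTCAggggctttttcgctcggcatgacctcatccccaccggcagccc

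Further genes were among the 20 largest falls. Abra, an actin-binding protein of striated and smooth muscle, had a signal of 85.6, 128, and 106 at 2 h and 12.6, 16.5, and 6.85 at 24 h, and Xirp1, an actin-binding protein of muscle, had 468, 853, and 632 and 138, 150.5, and 85.5. Neither gene had overlapping times. Their log2 changes were -3.17 (adjusted p = 3.88e-05) and -2.38 (adjusted p = 8.54e-05, limma).

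Gprasp2, a protein that sorts G protein-coupled receptors after endocytosis, had one of the lowest adjusted p values (4.67e-06, limma). Its signal was 27.3, 27.5, and 36.4 at 2 h and 5.6, 5.43, and 3.95 at 24 h, and all 24 h libraries were also below the CsA untreated libraries, at 15.9, 13.9, and 13.5. The log2 change from 2 h to 24 h was -2.49 (SE 0.19). Haus8, a microtubule-nucleating augmin subunit, changed by -2.33, and Tnfaip6, which transfers proteins onto hyaluronan, by -2.19.

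The circadian output regulator Nfil3 fell from 55.7, 65.6, and 51.5 to 11, 12.2, and 19.3, without overlap (log2 change -2.02, SE 0.26, adjusted p = 0.000186, limma). Ctgf, a matricellular growth factor, fell from 5342, 9159, and 7615 to 3044, 3931, and 2051 (log2 change -1.31, adjusted p = 0.0095, limma). Its 24 h libraries were still above the CsA untreated ones, at 836, 879, and 703 (log2 change from untreated 1.86, adjusted p = 0.0025, limma). Ctgf lost its call between 24 h and 2 h without both replicate 3, at 0.0811.

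The potassium channel gene Kcnq3 and the microtubule protein gene Mapt were in the same set, with 1 library far above the others. Kcnq3 had 1.86, 1.63, and 39 at 2 h and 0.119, 1.39, and 0.0384 at 24 h, so that CsA Ang-II 2 h replicate 3 was far above all others. Without that library its log2 change was -1.39 (adjusted p = 0.0797, limma), beside -2.77 with it. It also lost its call without CsA Ang-II 24 h replicate 1 (0.0903) or replicate 3 (0.0985). Mapt had 12.4, 5.46, and 61.4 at 2 h and 2.65, 2.65, and 3.52 at 24 h, again highest in 2 h replicate 3, without which its log2 change of -2.30 was -1.36 and kept its call in limma.

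Secreted proteins and the mesothelial markers described further on were among the 20 largest rises. Igfbp2, which binds insulin-like growth factors (ENSMUSG00000039323, chromosome 1, 72824503 to 72852474, plus strand), had a signal of 11.9, 31.2, and 21.4 at 2 h and 260.2, 234, and 112 at 24 h. Every 24 h library was above every 2 h library, and the CsA untreated libraries had 10.8, 13.9, and 15.3. The fitted level was 9.29-fold higher at 24 h (log2 change 3.21, SE 0.33, adjusted p = 2.53e-05, limma).

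Prg4, the lubricating proteoglycan lubricin, had 5.19, 8.66, and 6.6 at 2 h and 40.4, 48.1, and 114 at 24 h. The groups did not overlap, and 24 h replicate 3 was the highest (log2 change 3.09, SE 0.41, adjusted p = 0.000238, limma). Esm1, an endothelial proteoglycan, had 0.945, 1.58, and 2.39 at 2 h and 10.4, 10.6, and 13.9 at 24 h, without overlap (log2 change 2.55, SE 0.33, adjusted p = 0.000221, limma). Gdf6, a bone morphogenetic protein ligand, rose from 0.741, 0.646, and 0.863 to 5.84, 8.26, and 5.03 (log2 change 2.44, adjusted p = 0.000221, limma), without overlap.

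Grap, an adaptor of receptor tyrosine kinases, had 8.56, 9.6, and 9.21 at 2 h and 27.7, 31.9, and 25.2 at 24 h, and Wisp2, a matricellular protein of the Ctgf family, had 128, 146, and 155 and 378, 345, and 355. In both genes every 24 h library was above every 2 h library. Their log2 changes were 1.57 for Grap and 1.33 for Wisp2 (adjusted p = 5.69e-05 and 3e-05, limma). Wisp2 and Ctgf, both of one family, thus moved in opposite directions from 2 h to 24 h. Gxylt2, a glycosyltransferase, also rose more than 2-fold, with a log2 change of 1.08.

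Matrix proteases, their inhibitors and crosslinking enzymes had 11 of 40 members higher and 3 lower (median log2 change 0.14), and the same counts without both replicate 3. Timp1, an inhibitor of metalloproteinases, had 8.4, 15.5, and 12.7 at 2 h and 34.1, 38.9, and 50 at 24 h, without overlap (log2 change 1.73, SE 0.29, adjusted p = 0.00129, limma). Mmp3, stromelysin 1, had 23.2, 26.3, and 35.5 at 2 h and 79.5, 57.6, and 125 at 24 h, without overlap (log2 change 1.56, SE 0.27, adjusted p = 0.00146, limma). The membrane metalloproteinase Mmp14 rose by 0.59, the plasminogen activator Plat by 0.75, the aggrecanase Adamts5 by 0.62, and the lysyl oxidase-like enzymes Loxl4 and Loxl2 by 1.19 and 0.65 on the log2 scale. Adamts1, a protease of versican, was one of the 3 that fell, from 826, 1229.9, and 934 to 462, 427, and 348 (log2 change -1.26, adjusted p = 0.000803, limma).

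Some promoters of genes that rose held the AP-1 site TGANTCA, whose complement has the same form. It was in 6.452% of all promoters, in 16 of 97 (16.495%) of the genes more than 2-fold higher at 24 h, and in 15 of 191 (7.853%) of those more than 2-fold lower. The macrophage marker Cd68 held the site at 2 places, and Trem2, Cd84 and C3ar1 also held it, and these are not printed. The part of macrophage markers in this share was not tested. Igfbp2, Mmp3 and the chemokine gene Ccl9 are shown as examples, with the site in capitals (RefSeq, GRCm38.p6, 5′ to 3′ on the gene's strand).
Igfbp2, chr1:72825277-72825386, plus strand: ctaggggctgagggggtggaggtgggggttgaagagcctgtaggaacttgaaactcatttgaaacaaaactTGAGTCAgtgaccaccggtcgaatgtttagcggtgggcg
Mmp3, chr9:7445712-7445821, plus strand: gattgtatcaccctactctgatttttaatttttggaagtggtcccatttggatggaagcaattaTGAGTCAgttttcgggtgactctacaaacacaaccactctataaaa
Ccl9, chr11:83578637-83578746, minus strand: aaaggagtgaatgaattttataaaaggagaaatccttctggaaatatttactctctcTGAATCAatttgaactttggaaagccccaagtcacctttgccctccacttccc

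**Figure D2:**
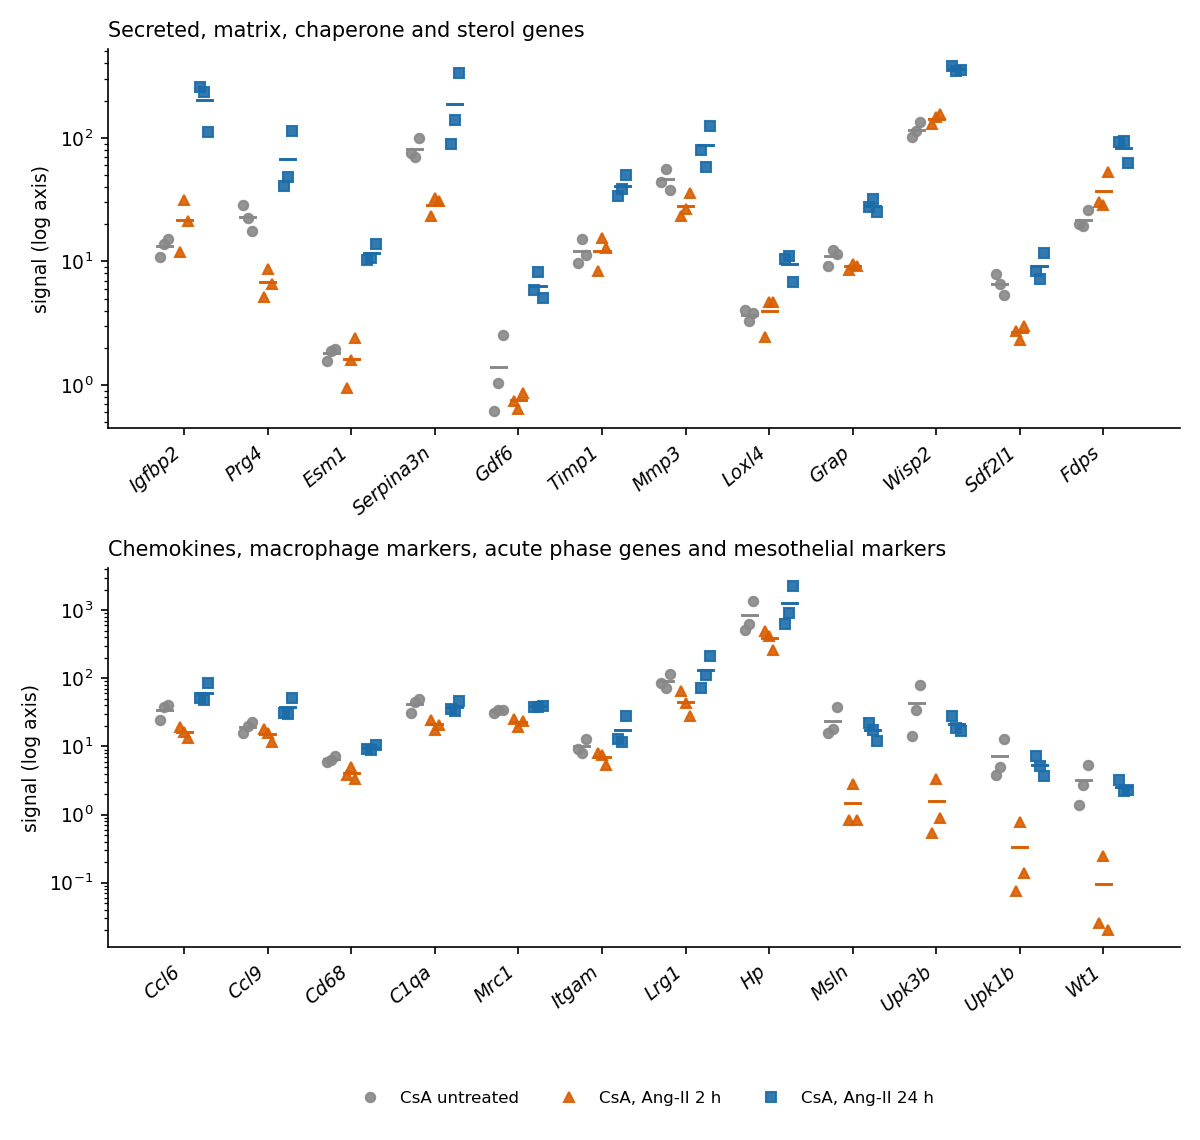
The signal of genes that were higher at 24 h than at 2 h in each library, on a log axis, with secreted, matrix, chaperone and sterol genes on top and chemokines, macrophage, acute phase and mesothelial markers below. Points are libraries, short lines group means, and colours mark CsA untreated, Ang-II 2 h and Ang-II 24 h. For Igfbp2 the 24 h libraries stand above both other groups, whereas the mesothelial genes Msln and Upk3b are low in the 2 h group alone, at 0.843, 2.78, and 0.823 for Msln.

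Markers of macrophages were higher at 24 h, with 7 of 13 called higher and 0 lower and a median log2 change of 0.85. That count was 4 when CsA Ang-II 2 h replicate 2 or 24 h replicate 3 was left out, and 2 without both replicate 3. Their summed signal had a lowest, median and highest value of 211, 219, and 242 at 2 h and 326, 361, and 526 at 24 h, and of 380, 431, and 445 in CsA untreated aortas. The 2 h libraries were thus the lowest of these groups, and the 24 h libraries overlapped the untreated ones.

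Cd68, a lysosomal protein of macrophages, had 3.75, 5.01, and 3.31 at 2 h and 9.32, 9.01, and 10.4 at 24 h, without overlap (log2 change 1.17, SE 0.23, adjusted p = 0.00368, limma). The mannose receptor gene Mrc1 had 25.7, 19.2, and 23.9 and 38.4, 38.1, and 39.5 (log2 change 0.75, adjusted p = 0.00753), and the complement gene C1qb changed by 0.89 (adjusted p = 0.00961, and 0.0768 without both replicate 3, limma). In each of these genes the lowest library at 24 h was above the highest at 2 h. Adgre1, which encodes the macrophage antigen F4/80, was not called (log2 change 0.51, adjusted p = 0.179, limma).

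Chemokines and cytokines had 5 of 24 members higher and 1 lower (median log2 change 0.53), and 3 higher without CsA Ang-II 2 h replicate 2, 2 h replicate 3, or 24 h replicate 3, and 1 higher without both replicate 3. Ccl6, a chemokine made by myeloid cells, had 19.3, 16.5, and 13.3 at 2 h and 50.7, 48.4, and 84.2 at 24 h, and Ccl9 had 18.2, 15.6, and 11.7 and 31.4, 29.6, and 51.9. Replicate 3 was the highest 24 h library for both, and the times did not overlap. Their log2 changes were 1.84 (adjusted p = 0.00223) and 1.26 (adjusted p = 0.00822, limma), and Ccl9 lost its call without both replicate 3, at 0.1. The monocyte chemokine Ccl2 was not called (log2 change 1.45, adjusted p = 0.0575, limma). The rise of these genes went along with the macrophage marker signal given above, and its part in them was not tested.

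Genes of STAT3 signalling and the acute phase had 5 of 23 members higher and 1 lower (median log2 change 0.31), and this rested on CsA Ang-II 24 h replicate 3. Without that library the counts were 2 higher and 2 lower and the median was -0.02. Leaving out CsA Ang-II 2 h replicate 3 gave 2 higher and 0 lower, and leaving out 2 h replicate 1 or 24 h replicate 2 gave 3 and 0. Serpina3n, an acute phase inhibitor of proteases, had 23.4, 32.5, and 30.6 at 2 h and 89.4, 140.1, and 336 at 24 h, so that replicate 3 was the highest but all 24 h libraries were above all 2 h libraries (log2 change 2.48, SE 0.34, adjusted p = 0.000313, limma). Haptoglobin (Hp) had 503, 414, and 259 at 2 h and 625, 914, and 2301 at 24 h and a log2 change of 1.53 (adjusted p = 0.0333). Without CsA Ang-II 24 h replicate 3 the change of Hp was 1.00 (adjusted p = 0.146), and it also lost its call without 2 h replicate 2 (0.0685), 2 h replicate 3 (0.113), or 24 h replicate 2 (0.0512). C4b, a complement component, had a log2 change of 1.21 with all libraries and 0.82 (adjusted p = 0.148, limma) without 24 h replicate 3, 1.17 (0.0896) without 2 h replicate 2, and 1.11 (0.0931) without 2 h replicate 3.

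Mesothelial markers had the largest median change of the marker lists, 2.33 on the log2 scale, with 4 of 7 called higher, all more than 2-fold, and 0 lower. The count of higher members was 3 without CsA Ang-II 2 h replicate 1, 2, or 3, or 24 h replicate 1. It was 3 without both replicate 3 as well. The summed signal of the 7 markers had a lowest, median and highest value of 7.84, 8.01, and 16.1 at 2 h, 59.8, 61.2, and 80.1 at 24 h, and 79.5, 108, and 174 in CsA untreated aortas. The 2 h libraries were below all others of the CsA groups. Msln, the mesothelial surface protein mesothelin, had 0.843, 2.78, and 0.823 at 2 h and 21.9, 17.7, and 12.1 at 24 h (log2 change 3.26, SE 0.78, adjusted p = 0.0107, limma). The uroplakin gene Upk3b had 0.536, 3.27, and 0.903 and 27.8, 18.8, and 16.6 (log2 change 3.58, SE 0.64, adjusted p = 0.00182), and Wt1, a mesothelial transcription factor, had 0 reads in 2 of the 2 h libraries. Mesothelium covers the outer surface of tissue in the chest and abdomen, and the part of these markers in the other changes was not tested.

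The other marker lists had at most 2 members called. Of 12 endothelial markers 0 were called in either direction (median log2 change -0.09, with 0 at an unadjusted p under 0.05 in limma). Of 10 adventitial fibroblast markers 2 were lower, and of 6 smooth muscle markers 1 was lower, which was Myocd. The 7 neutrophil markers in the table summed to 5.95 to 104 over both times, with the highest value in a 24 h library, and 0 of them were called (median log2 change 0.96). Of 6 erythrocyte markers, with sums of 134 to 1610 at 2 h and 388 to 2490 at 24 h, Slc4a1 was called higher (median 0.88), and of 4 skeletal muscle markers, with sums of 6.82 to 7.25 and 12.5 to 23.6, Tnnt3 was (median 0.82). Of 12 adipocyte markers, with sums of 3150 to 7370 at 2 h and 3240 to 8220 at 24 h, 1 was lower (median 0.10). Relative to the mean at 2 h, their median was -0.44, -0.20, and 0.93 in the 3 libraries at 24 h, highest in replicate 3. The part of these cells in other changes, such as those that rested on 24 h replicate 3, was not tested.

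The unfolded protein response of the endoplasmic reticulum, a set of chaperones and folding enzymes of secreted proteins, had 7 of 22 members higher and 0 lower (median log2 change 0.17). That count was 4 without CsA Ang-II 24 h replicate 1 and 11 with quantile normalization. Sdf2l1, a cochaperone of the chaperone BiP, had 2.73, 2.29, and 3.03 at 2 h and 8.36, 7.25, and 11.7 at 24 h, without overlap (log2 change 1.57, SE 0.25, adjusted p = 0.000811, limma). Its CsA untreated libraries had 7.89, 6.58, and 5.33. From untreated it changed by -1.15 at 2 h (adjusted p = 0.00536) and by 0.43 at 24 h (adjusted p = 0.302, limma). Manf, a secreted stress protein, and the BiP cofactor Dnajb11 rose by 0.58 and 0.48 on the log2 scale.

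Genes of cholesterol synthesis and uptake had 8 of 25 members higher and 0 lower (median log2 change 0.28). That count was 5 without CsA Ang-II 2 h replicate 1 or 24 h replicate 2 and 4 without 2 h replicate 2. Fdps, farnesyl diphosphate synthase, had 30.1, 28.6, and 53.2 at 2 h and 92.3, 94.3, and 62.9 at 24 h, without overlap (log2 change 1.18, SE 0.20, adjusted p = 0.00111, limma). Mevalonate kinase (Mvk) rose by 0.97 and lanosterol synthase (Lss) by 0.83.

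Cytosolic ribosomal protein genes had 10 of 82 members higher and 0 lower (median log2 change 0.21), beside 6.71% higher over all genes. The count was 41 with quantile normalization and 4, with a median of 0.05, once the trend on transcript length and GC content was removed. It was 5, 1, 4, and 2 without CsA Ang-II 2 h replicate 1, 2 h replicate 3, 24 h replicate 2, and 24 h replicate 3, respectively. Of 76 subunits of oxidative phosphorylation 1 was higher and 0 were lower.

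Genes of the contractile apparatus of smooth muscle had 5 of 25 members lower and 1 higher (median log2 change 0.00). Over all genes 9.51% were lower and 6.71% higher. With quantile normalization 2 members were lower and 7 higher, so that no direction is given for the list. The count of lower members was 3 without CsA Ang-II 2 h replicate 1, 2 h replicate 2, 24 h replicate 1, or 24 h replicate 3. Myocd, the coactivator of the smooth muscle programme, had 83.3, 135, and 89.7 at 2 h and 44, 46.1, and 24.9 at 24 h, without overlap (log2 change -1.43, SE 0.28, adjusted p = 0.00323, limma). Ppp1r12a, the targeting subunit of myosin phosphatase, changed by -0.78 (adjusted p = 0.00322, limma).

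Collagen chains had 5 of 25 members lower and 0 higher (median log2 change -0.15), beside 9.51% lower and 6.71% higher over all genes. The count of lower members was 3 without CsA Ang-II 2 h replicate 2, and 2 with a median of 0.04 without both replicate 3. Col27a1, a fibrillar collagen, had 56.2, 52.9, and 51.8 at 2 h and 31.6, 21.7, and 22.7 at 24 h, without overlap (log2 change -1.09, SE 0.14, adjusted p = 0.000198, limma).

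Signalling by TGF-beta and bone morphogenetic proteins had 4 of 39 members higher and 6 lower (median log2 change -0.18), beside 6.71% higher and 9.51% lower over all genes. The receptor Tgfbr1 had 263, 347, and 293 at 2 h and 131, 131, and 100.4 at 24 h, and the ligand Tgfb2 had 169, 336, and 205 and 108, 123, and 65.6. Both were lower in every 24 h library than in any 2 h library, with log2 changes of -1.32 (adjusted p = 0.00046) and -1.24 (adjusted p = 0.00782, limma). The ligand Bmp4 rose from 18.4, 30.2, and 30.1 to 53.2, 57, and 75.4 (log2 change 1.24, adjusted p = 0.00342, limma).

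Of 19 genes of endothelin, nitric oxide and natriuretic peptides, 2 were higher and 2 lower, and of 12 genes of the renin-angiotensin system 1 was higher and 2 were lower, beside 6.71% higher and 9.51% lower over all genes. Edn1, the precursor of the constrictor endothelin 1, had 14.7, 17.8, and 18.7 at 2 h and 25, 34.3, and 50.8 at 24 h, without overlap (log2 change 1.03, SE 0.18, adjusted p = 0.00173, limma). Enpep, the aminopeptidase that trims Ang-II to angiotensin III, had 16.9, 17.9, and 17.2 at 2 h and 9.22, 8.36, and 8.13 at 24 h (log2 change -0.98, SE 0.10, adjusted p = 3.2e-05, limma), also without overlap. In prostanoid synthesis, with 2 of 18 members higher and 4 lower, the phospholipase Pla2g4a and the cyclooxygenase Ptgs2 changed by -1.24 and -1.87, and the prostacyclin receptor Ptgir by 1.12. Ptgs2 had 60.6, 113, and 115 at 2 h and 32, 32.6, and 14.7 at 24 h, and its adjusted p was 0.00902 with all libraries and 0.0944 without both replicate 3.

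Interferon-inducible genes, which respond to antiviral signals, had 0 of 37 members called in either direction in limma, with a median log2 change of 0.56. An unadjusted p under 0.05 was found for 9 of the 37, beside 4794 of 15399 over all genes. The median of the 37 genes, relative to the mean at 2 h, was 0.17, 0.19, and 1.31 in the 3 libraries at 24 h, so that replicate 3 was the high one. With CsA Ang-II 24 h replicate 1 or replicate 2 left out, 3 members were higher. In the libraries of CsA untreated mice these genes were higher than at both times, with a median log2 change from untreated of -2.04 at 2 h (36 of 37 lower) and -1.43 at 24 h (23 lower).

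**Figure D3:**
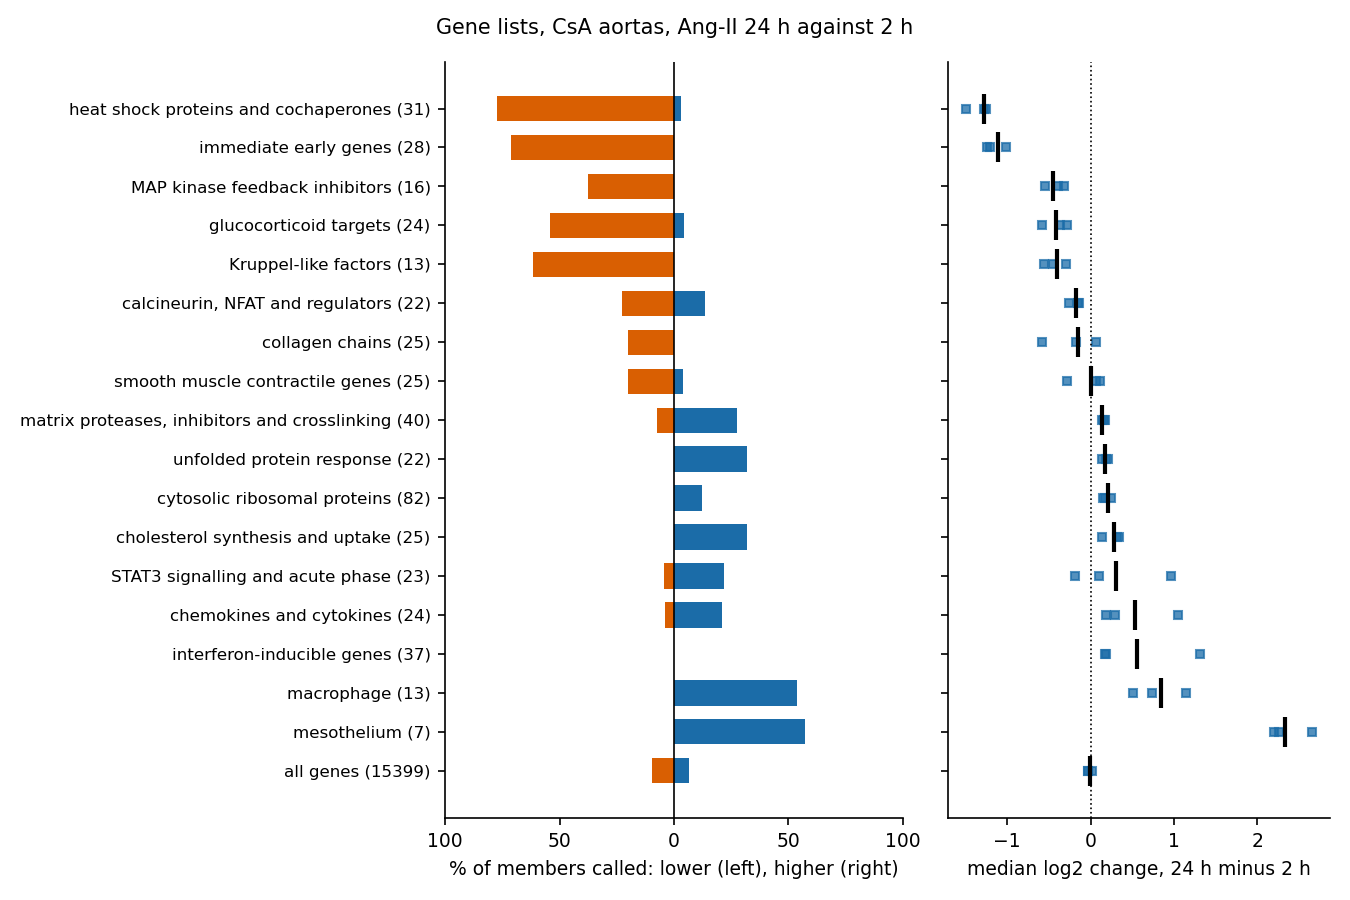
Share of each list called lower (left) or higher (right) at 24 h against 2 h, and the median log2 change over the list's members (right panel). The number of members measured is beside each name, squares give the median of each 24 h library relative to the mean at 2 h, and black bars give the median of the fitted changes. Heat shock proteins (24 of 31) and immediate early genes (20 of 28) have the largest shares called lower among the lists drawn.

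With only the 6 libraries compared in the fit, heat shock proteins had 22 and immediate early genes 18 lower. The same fit gave 7 glucocorticoid targets, 2 contractile genes and 1 collagen lower, and 7 matrix proteases and partners, 5 ribosomal protein genes, 2 cholesterol genes, 2 chemokines, 1 STAT3 gene, and 1 calcineurin gene higher. Mesothelial markers had 7 higher in it.

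The levels in CsA untreated aortas are given beside both times. The untreated libraries differed in some marker sums. Cardiac muscle markers summed to 232 to 1800 untreated, 111 to 169 at 2 h and 89.4 to 151 at 24 h. Smooth muscle markers summed to 15300 to 17200 untreated, below both Ang-II groups (19000 to 24600 and 18000 to 26300). Endothelial markers, at 1240 to 1450 untreated, overlapped both. The part of tissue content in the changes from untreated was not tested. Comparisons with untreated share libraries with the one between 24 h and 2 h, so the values are set side by side and no agreement is counted. In limma, 2867 genes (18.6%) differed between 2 h and untreated, 1756 higher (11.4%) and 1111 lower (7.21%), and 1216 (7.9%) differed between 24 h and untreated, 714 higher (4.64%) and 502 lower (3.26%). Without CsA Ang-II 2 h replicate 2 the first count was 1485, and without CsA untreated replicate 3 it was 1789. The second count was 503 or 543 without CsA Ang-II 24 h replicate 1 or 2, 551 or 642 without CsA untreated replicate 1 or 2, and 2081 without both replicate 3 of the Ang-II groups. For heat shock proteins the median log2 change from untreated was 1.08 at 2 h (27 of 31 higher) and -0.01 at 24 h (2 higher, 1 lower). For immediate early genes it was 1.71 at 2 h (24 of 28 higher) and 0.22 at 24 h (3 higher).

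Genes that rose after 2 h were of more than one kind beside the untreated level. Igfbp2 at 24 h was 3.80 above untreated on the log2 scale (adjusted p = 2.43e-05, limma), and Timp1 1.73 (adjusted p = 0.00319). Serpina3n changed from untreated to 24 h by 0.99 (adjusted p = 0.0861, limma). Msln had 15.6, 18.1, and 38.3 untreated and a change of -0.39 at 24 h (adjusted p = 0.793), and Cd68 a change of 0.53 (adjusted p = 0.172). Ccl6 changed from untreated by -1.03 at 2 h (adjusted p = 0.0443) and by 0.81 at 24 h (adjusted p = 0.15, limma). Prg4 changed by -1.68 at 2 h (adjusted p = 0.0104) and by 1.41 at 24 h (adjusted p = 0.0462, limma).

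In WT aortas, 5181 genes (33.6%) differed between 24 h and 2 h of Ang-II, 2416 higher (15.7%) and 2765 lower (18%). WT Ang-II 2 h replicate 2 stood apart, at 27 on the second principal component against -2.1 and -4.5 for the others of its group. The summed macrophage markers had a lowest, median and highest value of 130, 138, and 407 in the WT 2 h libraries. The difference between the CsA and the WT change was tested as an interaction in the same limma fit, and 7 genes (0.0455%) had an adjusted p under 0.05, with 1879 at an unadjusted p under 0.05. The median SE of this difference was 0.235 on the log2 scale, beside 0.166 for the change in CsA aortas alone. The count of 7 was 13 in edgeR and 270 in DESeq2. It was 0 when CsA Ang-II 2 h replicate 1 or 3, CsA 24 h replicate 2, WT 2 h replicate 1 or 3, or WT 24 h replicate 2 was left out, 1, 2, and 4 without CsA 24 h replicate 1, CsA 2 h replicate 2, and WT 2 h replicate 2, and 109, 55, and 85 without CsA 24 h replicate 3, WT 24 h replicate 1, and WT 24 h replicate 3. Without both replicate 3 of the CsA groups it was 175.

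Of the 553 genes (3.59% of those tested) that rose more than 2-fold in WT aortas, 533 (96.4%) had a positive log2 change in CsA aortas and 207 were DEGs there. Their median log2 change was 1.34 in WT, where they were chosen, and 0.68 in CsA aortas. Of the 609 (3.95%) that fell more than 2-fold in WT aortas, 582 (95.6%) had a negative change in CsA aortas and 387 were DEGs, with medians of -1.28 and -0.80. Chosen in CsA aortas instead, the 159 genes that rose had a median of 1.25 there and 1.46 in WT, and the 278 that fell had -1.30 and -1.35. Choosing genes by their change in one group enlarges their median there, so the first medians are no measure of the difference. With genes chosen in CsA aortas the WT medians were the larger in size, but 0 of the 159 and 0 of the 278 had a called difference.

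By list, 15 of the 22 genes of the unfolded protein response had an unadjusted p under 0.05 for the difference, with a median change of 0.17 in CsA and 0.54 in WT aortas (7 and 17 higher), and 0 had an adjusted p under 0.05. For chemokines and cytokines the medians were 0.53 and 1.44, with 5 and 16 members higher, and 0 differences were called. The macrophage markers had medians of 0.85 and 1.50, with 7 and 10 of 13 higher, 9 differences at an unadjusted p under 0.05 and 0 called in limma, and their part in the chemokine values was not tested. For heat shock proteins they were -1.28 and -1.03, with 24 and 25 lower, and 0 differences called. Single genes near the threshold were Timp1, with 1.73 in CsA and 3.94 in WT (difference -2.21, adjusted p = 0.0526), and Sdf2l1, with 1.57 and 3.59 (difference -2.02, adjusted p = 0.0526, limma). Ptgs2 changed by -1.87 in CsA and -0.19 in WT, and this difference did not pass the test (adjusted p = 0.267).

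The 7 genes with a called difference had log2 changes of -0.26 (Gstm1, adjusted p = 0.209) to 0.63 (Alpl, adjusted p = 0.0294, limma) in CsA aortas and -1.59 (Gstm7) to 2.16 (Alpl) in WT. Gstm7, a glutathione transferase, had 7.64, 9.42, and 7.89 at 2 h and 6.51, 8.46, and 10.4 at 24 h in CsA aortas, and 13.6, 12.4, and 13.4 and 4.13, 3.14, and 5.04 in WT. It overlapped between the times in CsA aortas and not in WT, where every 24 h library was the lower, and the difference was 1.59 (SE 0.23, adjusted p = 0.0419, limma). Alpl, tissue-nonspecific alkaline phosphatase, had 26.1, 33.1, and 25.9 and 36.5, 38.9, and 59 in CsA aortas and 23.8, 20.7, and 19.9 and 87.2, 133, and 80 in WT, with log2 changes of 0.63 and 2.16 (difference -1.53, SE 0.26, adjusted p = 0.0495, limma). The change of Alpl in CsA aortas lost its call without 2 h replicate 1 (0.0771), 2 h replicate 3 (0.0871), 24 h replicate 3 (log2 change 0.41, adjusted p = 0.132, limma), or both replicate 3 (log2 change 0.35, 0.244).

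**Figure D4:**
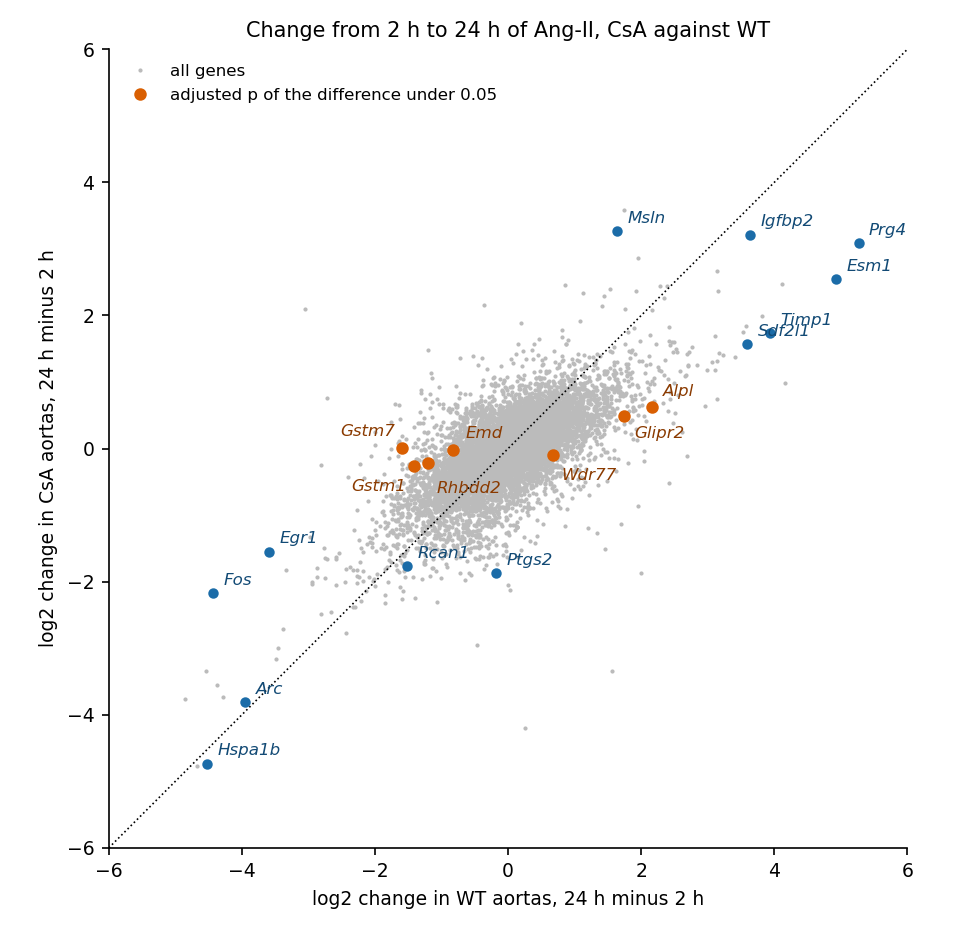
The log2 change from 2 h to 24 h in CsA aortas (vertical axis) against that in WT aortas (horizontal axis), 1 point a gene, with the line of equal change dotted. Orange points are the 7 genes with an adjusted p under 0.05 for the difference, and blue points are genes named in the text, such as Hspa1b at -4.74 and -4.52 near the line and Timp1 at 1.73 and 3.94 below it.

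The direction of change followed the length of the transcript. In the shortest quintile of protein-coding genes, by the longest annotated transcript (204 to 1824 bases), 301 DEGs were higher and 100 lower, with a median log2 change of 0.11. In the longest quintile (5208 to 123179 bases), 104 were higher and 510 lower, with a median of -0.16. The same quintiles held 654 higher and 254 lower and 265 higher and 880 lower in WT aortas. By GC content, the lowest quintile (31.9 to 44.3%) held 109 higher and 430 lower DEGs and the highest (56.0 to 72.8%) 327 higher and 151 lower. Once a smooth trend on length and GC content was removed from each library, the shortest quintile held 155 higher and 191 lower and the longest 247 higher and 259 lower. Heat shock proteins then had 24 of 31 lower and 1 higher, immediate early genes 21 of 28 lower, and matrix proteases and their partners 11 higher and 3 lower.

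**Figure D5:**
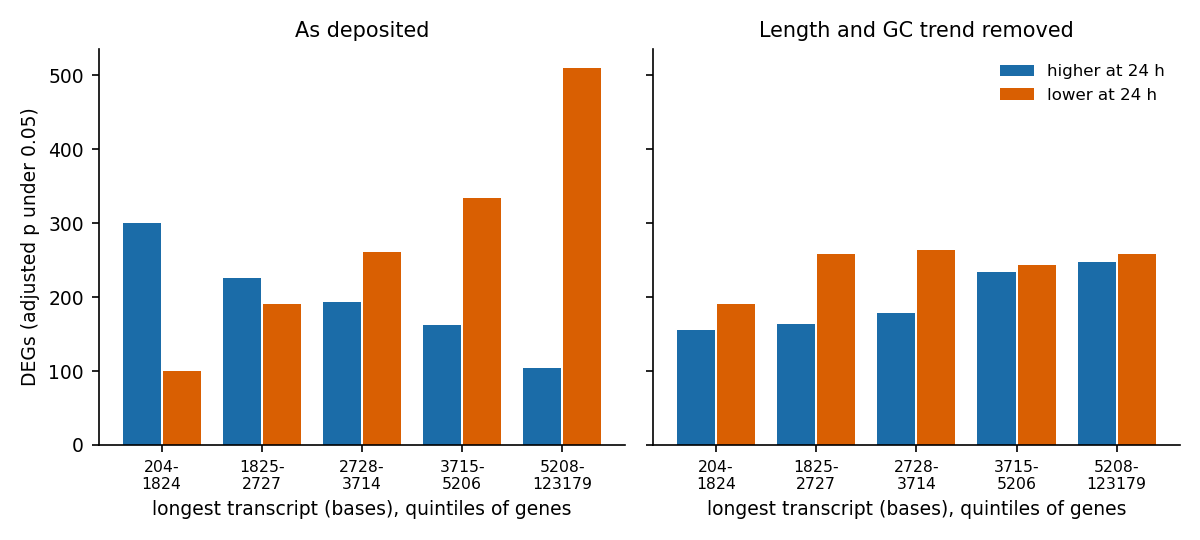
The number of DEGs higher (blue) and lower (orange) at 24 h than at 2 h in CsA aortas by quintiles of the longest transcript of a gene, in bases, for the deposited values (left) and after removal of the trend on length and GC content (right). On the left, DEGs that are higher fall from 301 to 104 and those that are lower rise from 100 to 510 across the quintiles, and on the right these counts are 155 to 247 and 191 to 259.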

How the data were processed

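Aortic RNA was measured by RNA-seq of oligo-dT libraries, each from a pool of 3 aortas with an RNA integrity number of at least 7, sequenced on a Genome Analyzer IIx. Per the labels, the submitters' processing notes name Bowtie 0.12.7, RSEM 1.16, and GRCm38. The signal values deposited by the authors are normalized reads per 1000000. Each is a read number with 0.5 added, over a library total that carries a scaling factor. Whole reads were recovered from 100% of the values at a tolerance of 0.01, as read from the table, and these counts were used for edgeR and DESeq2. No deposited p-value or fold change was used. Groups were taken from the sample labels.

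The signal was tested with limma 3.58.1 (R 4.3.3) as log2(signal + 0.5), so that changes of low genes are understated. One mean was fitted to each of 6 groups of 3 libraries, with a trended empirical Bayes variance and Benjamini-Hochberg adjustment over 15399 genes, and adjusted p under 0.05 was the threshold. Differences between the CsA and WT changes were contrasts of the same fit. On data simulated for CsA Ang-II 24 h against 2 h over 15399 genes, 80 of 100 genes changed 2-fold and 94 of 100 changed 4-fold were found, with 9 false calls. Low genes were not among those changed, and the simulation held no outlying library and no trend on transcript length. These rates therefore describe simpler data than those compared here. Alternatives were edgeR 4.0.16, DESeq2 1.42.0, pseudocounts of 0.1 and 2, other filters and scalings, a replicate block, and each library left out. The length and GC correction and the fit without both replicate 3 were chosen after seeing the data.

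Named genes were the 20 protein-coding genes with the largest rise and the 20 with the largest fall among DEGs with a mean signal of at least 5 in a group and no overlap, members of gene lists, the 12 genes with the lowest p of the difference between CsA and WT, and the 6 DEGs with the highest signal over 2-fold in each direction. Some genes that the rule names are not reported here. Members and lists were chosen with earlier results of these data known, so list counts are descriptions and no test was run over lists. Positions are from GENCODE mouse release M21 (GRCm38.p6). Library depth was 20387774 to 38900009 reads, and the p-values measure the spread between pools of animals. The smallest chi-square per degree of freedom between replicates of a group was 11.6, so no library was a repeat of another in its group. Pairs from different groups were not checked.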

Additional observations from a re-analysis of the deposited data

Results flagged for a closer look

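For 7 genes the change from 2 h to 24 h differed between CsA and WT aortas in the interaction test of limma, at an adjusted p under 0.05 over 15399 genes. Values are signals of replicates 1, 2, and 3, and the difference is the log2 change in CsA minus that in WT.

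For Gstm7, a glutathione transferase, the difference was 1.59 (SE 0.23, adjusted p = 0.0419, limma). It was lower at 24 h in WT (-1.59) and had a change of 0.01 in CsA aortas. Gstm1, a relative, had 276, 326, and 259.8 at 2 h and 218, 249, and 249 at 24 h in CsA aortas and 391, 412, and 359.9 and 162, 113, and 164 in WT, with a difference of 1.15 (SE 0.20, adjusted p = 0.0495, limma). Genes of this family share near-identical sequence, so the split of reads between them is uncertain.

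Emd, which encodes the nuclear envelope protein emerin, had 55.9, 62.9, and 50.7 and 55, 56.1, and 54.8 in CsA aortas and 125, 115, and 112 and 68.9, 67.1, and 62 in WT, with a difference of 0.80 (SE 0.12, adjusted p = 0.0419, limma). For Rhbdd2, a rhomboid family membrane protein, the values were 30, 26.4, and 28.5 and 23.8, 25.8, and 22.8 in CsA aortas and 47.7, 43.1, and 55 and 20.6, 21.2, and 20.6 in WT, and the difference was 0.98 (SE 0.16, adjusted p = 0.0419, limma). In WT every 24 h library of both genes was below every 2 h library, whereas in CsA aortas the times overlapped for Emd and not for Rhbdd2.

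For Glipr2, a Golgi-associated protein, the difference was -1.25 (SE 0.20, adjusted p = 0.0419, limma), with 11.4, 13, and 13.5 and 18.7, 16.1, and 19.2 in CsA aortas and 12.3, 10.9, and 13.3 and 38.7, 50.6, and 37.4 in WT. Wdr77, a subunit of the methylosome, had a difference of -0.78 (SE 0.13, adjusted p = 0.0419, limma), with 38.3, 37.7, and 36.3 and 31.6, 36.3, and 36.9 in CsA aortas and 27.7, 28.8, and 31.3 and 45.3, 53.7, and 42.9 in WT. For Alpl, tissue-nonspecific alkaline phosphatase, the difference was -1.53 (SE 0.26, adjusted p = 0.0495, limma), and the log2 change was 0.63 in CsA and 2.16 in WT aortas.

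All 7 lost the call with quantile normalization, in the fit of the 12 Ang-II libraries alone, with the replicate block, and without at least one single library. Groups of 3 libraries are too small to test for a single outlying library.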

How the results depend on the processing

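No named gene called in limma changed direction under the alternatives tried, while the median of the STAT3 list (0.31) was -0.02 without CsA Ang-II 24 h replicate 3 and that of the collagens (-0.15) was 0.04 without both replicate 3. The 2498 DEGs became 811 (288 higher, 523 lower) when only the 6 libraries compared entered the fit, and 1574 to 2285 (613 to 860 higher, 917 to 1425 lower) with CsA libraries of these times left out, and 2329 to 2637 with WT libraries left out. The counts over 2-fold (437, with 159 higher and 278 lower) were 242 (62 and 180) at a pseudocount of 2, 273 (87 higher) with only the libraries compared, and 784 (276 and 508) in DESeq2. Higher genes over 2-fold were 93 at a mean signal of at least 5. The counts against untreated were 1719 at 2 h and 379 at 24 h with only the libraries compared, 1485 to 3290 and 503 to 2081 with CsA libraries left out, and the latter 1880 in DESeq2. They were not refitted at a mean signal of at least 5. The 7 differences between CsA and WT were 39 at a pseudocount of 2, 33 at a mean signal of at least 5, 29 among protein-coding genes, 46 after the length and GC correction, 13 in edgeR, 270 in DESeq2, 0 with quantile normalization and with only the libraries compared, and 0 to 175 with CsA or WT libraries left out.

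The median of the mesothelial markers (2.33) was 3.13 and 1.27 at pseudocounts of 0.1 and 2, 3.26 at a mean signal of at least 5, 3.31 in edgeR, and 3.37 in DESeq2. Quantile normalization gave medians of -0.04 for the calcineurin list, 0.34 for the unfolded protein response, and 0.38 for ribosomal proteins, which were 0.05 after the length and GC correction. The calcineurin median ranged from -0.21 to -0.05 with libraries left out. The cause of these shifts was not tested. Of 145 named genes, 141 kept their side of the threshold in edgeR, 143 in DESeq2, 136 after the length and GC correction, 108 with only the libraries compared, 104 without both replicate 3, and 122 to 131 with single CsA libraries left out. Gstm7 and Emd, which were not called from 2 h to 24 h in CsA aortas, changed sign under some of these.

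Replicate numbers did not pair the CsA samples. Deviations of same-numbered CsA libraries at 2 h and 24 h correlated across genes at -0.0942, -0.033, and -0.159, and those of WT libraries at 0.15, 0.105, and 0.0198. Differently numbered WT libraries correlated at -0.122 to 0.0119, below the same-numbered ones. With the replicate number as a block there were 2260 DEGs (924 higher, 1336 lower), 140 of 145 named genes kept their side, and the differences between CsA and WT went from 7 to 0.

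Depth limits low genes such as Wt1, which had 0 reads in 2 libraries at 2 h, and the DESeq2 and edgeR fits use recovered reads.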
